A study of Homo sapiens with 24 samples.

Results

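The genes described here encode the enzymes that make phosphatidylcholine, together with DGKK, a diacylglycerol kinase that uses the same lipid precursor. They are the 8 genes PCYT1A, PCYT1B, CHKA, CHKB, CHPT1, CEPT1, PEMT and DGKK of the 26475 gene symbols counted, taken by symbol from the counts on the gene's own strand. PCYT1B and DGKK were selected on their read counts, which fell with both inhibitors, so their changes with an inhibitor against its own control are given as a description with no test. The other 6 genes were taken for their function.

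HepG2 is a human liver cancer cell line that expresses many hepatocyte genes. It was treated with the vehicle DMSO, with 50 nM ABBV-075, with 50 nM or 500 nM ABBV-744, with interferon gamma (IFNg), or with IFNg together with each of those 3 inhibitor treatments, giving 8 groups of 3 libraries and 24 libraries in all. ABBV-075 blocks both bromodomains of the BET proteins, which bind acetylated histones, and ABBV-744 prefers the second of them. Total RNA was depleted of ribosomal RNA and sequenced from strand-specific libraries. The study's methods read as giving a shorter exposure for ABBV-075 than for the study's DMSO group. The sources used here do not say whether the DMSO libraries described here are that group. If they are, the inhibitor and the length of exposure cannot be told apart in that comparison. The exposure for ABBV-744 and IFNg and the dose of IFNg are not given in the sources used here. The study's methods call its own DMSO and ABBV-075 libraries triplicates from independent samples. Nothing in the sources used here says whether the 3 libraries of each other group came from separate cultures. The p-values there measure the spread between these libraries, which may be technical.

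Phosphatidylcholine is the main phospholipid of cell membranes and of the lipoproteins that hepatocytes secrete. In the CDP-choline pathway, choline kinase (CHKA, CHKB) phosphorylates choline, CTP:phosphocholine cytidylyl transferase (PCYT1A, PCYT1B) makes CDP-choline in the rate-controlling step, and cholinephosphotransferase (CHPT1) or choline/ethanolaminephosphotransferase (CEPT1) joins it to diacylglycerol. Liver has a further route, in which PEMT methylates phosphatidylethanolamine, and diacylglycerol kinases such as DGKK turn diacylglycerol into phosphatidic acid.

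Reads assigned to genes numbered 2978982 to 4304103 per library (median 3462418.5), which was 11.95% to 16.78% of all reads, while 56.0% to 69.4% of reads mapped to more than a single place and were not counted. Levels are in CPM, the count per 1000000 reads on genes after TMM normalisation, which evens out library composition. The liver gene ALB averaged 2280 to 3200 CPM over the 8 groups, and the leukocyte marker PTPRC had no read in any library. IRF1, an early IFNg target, averaged 12 CPM with DMSO and 229 CPM with IFNg. HEXIM1, which commonly rises when BET proteins are blocked, averaged 53.8 CPM with DMSO, 145 CPM with ABBV-075, 65.1 CPM with 50 nM ABBV-744 and 89.5 CPM with 500 nM ABBV-744. Only RNA was measured, and fewer cells expressing a gene cannot be told apart from less RNA per cell.

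PCYT1B lies on chromosome X, on the minus strand at chrX:24558087-24672677 of GRCh38 (GENCODE annotation), and DGKK on the same strand of the same chromosome at chrX:50365409-50470825. The 300 bases around the starts of these genes in RefSeq (GRCh38.p14, minus strand, 250 bases before the start and 50 after it) are shown because these are the genes with the largest changes of the set. Capitals mark the motifs found among the 5 searched on both strands, which were the CCAAT box (CCAAT), the TATA box (TATAAA), the E-box (CACGTG), the GC box (GGGCGG) and the cAMP response element (TGACGTCA).
PCYT1B, upstream start, chrX:24672838-24673137: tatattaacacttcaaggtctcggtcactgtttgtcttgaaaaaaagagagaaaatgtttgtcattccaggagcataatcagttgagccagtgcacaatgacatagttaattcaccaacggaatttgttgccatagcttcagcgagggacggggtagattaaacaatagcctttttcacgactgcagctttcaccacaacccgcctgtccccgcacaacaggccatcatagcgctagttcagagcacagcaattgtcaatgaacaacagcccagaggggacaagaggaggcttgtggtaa
PCYT1B, downstream start, chrX:24647298-24647597: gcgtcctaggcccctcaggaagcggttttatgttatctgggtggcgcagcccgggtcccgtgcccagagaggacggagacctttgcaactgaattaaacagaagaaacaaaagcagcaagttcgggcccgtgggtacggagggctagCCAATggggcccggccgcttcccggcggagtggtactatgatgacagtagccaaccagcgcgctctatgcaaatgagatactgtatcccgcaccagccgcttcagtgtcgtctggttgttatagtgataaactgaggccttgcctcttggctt
DGKK, chrX:50470776-50471075: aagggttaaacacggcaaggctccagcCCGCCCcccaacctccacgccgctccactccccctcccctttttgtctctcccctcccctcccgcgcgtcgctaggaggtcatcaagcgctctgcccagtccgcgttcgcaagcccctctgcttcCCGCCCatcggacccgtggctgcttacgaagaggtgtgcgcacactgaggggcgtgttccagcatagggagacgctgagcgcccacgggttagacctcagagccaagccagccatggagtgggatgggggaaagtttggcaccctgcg
The upstream PCYT1B window held none of the 5 motifs, the downstream window held a CCAAT box 103 bases before the start, and the DGKK window held 2 GC boxes, 223 and 98 bases before the start. Of 35116 RefSeq promoter windows, 34.6% held a CCAAT box and 45% a GC box. The G and C content was 45.7% in the upstream PCYT1B window, 56.7% in the downstream window and 65.3% in DGKK, against a median of 58.7% over all windows. These are matches of letters only, and the gene counts do not show which start was used.

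PCYT1B, the beta isoform of the cytidylyl transferase, was highest with DMSO and lowest with IFNg plus ABBV-075, a 19.9-fold range of group means. In CPM, the 3 DMSO libraries were at 51.5, 53.1 and 55, the ABBV-075 libraries at 4.58, 4.59 and 6.01, the 50 nM ABBV-744 libraries at 22.7, 25.8 and 26.7, and the 500 nM ABBV-744 libraries at 17.7, 18.1 and 18.3. All inhibitor libraries lay below all DMSO libraries, and the ABBV-075 libraries were the lowest of the 4 groups, resting on 16, 19 and 20 reads. With IFNg the levels were 27.1, 31.6 and 33.3 CPM for IFNg alone, 1.81, 2.72 and 3.48 CPM with ABBV-075, 14.7, 14.7 and 18.2 CPM with 50 nM ABBV-744, and 9.2, 9.23 and 11 CPM with 500 nM ABBV-744. The order of the 4 treatments was the same as without IFNg, at lower levels throughout.

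The mean PCYT1B level was 9.52% of DMSO with ABBV-075, 47.1% with 50 nM ABBV-744 and 33.9% with 500 nM ABBV-744. On the log2 scale the differences from DMSO were -3.41 (standard error, SE, 0.18), -1.07 (SE 0.14) and -1.55 (SE 0.14). Against IFNg alone they were -3.49 (SE 0.25), -0.93 (SE 0.16) and -1.66 (SE 0.18). Of the 7 pairs of neighbouring groups in the order of PCYT1B levels, 6 did not overlap, and only 500 nM ABBV-744 overlapped IFNg plus 50 nM ABBV-744. These differences chose the gene, so they describe it and are not tested.

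DGKK, the kappa form of diacylglycerol kinase, had a 13.8-fold range of group means with the same order of groups. Its DMSO libraries were at 64.2, 65 and 67.6 CPM, the ABBV-075 libraries at 6.51, 8.42 and 8.9 CPM, the 50 nM ABBV-744 libraries at 25.5, 27.3 and 33.1 CPM, and the 500 nM ABBV-744 libraries at 22.7, 26.2 and 27.3 CPM. The inhibitor groups were all below DMSO, and the ABBV-744 doses overlapped each other, the only neighbours in the order of DGKK levels that did. With IFNg the levels were 46.4, 52 and 53.4 CPM for IFNg alone, 2.72, 5.22 and 6.33 CPM with ABBV-075, 18.8, 19.6 and 20.6 CPM with 50 nM ABBV-744, and 11.4, 14.8 and 16.6 CPM with 500 nM ABBV-744. The log2 differences from DMSO were -3.07 (SE 0.17) with ABBV-075, -1.18 (SE 0.13) with 50 nM ABBV-744 and -1.36 (SE 0.13) with 500 nM ABBV-744. Against IFNg alone they were -3.42 (SE 0.20), -1.34 (SE 0.13) and -1.84 (SE 0.16), again without a test.

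**Figure D1:**
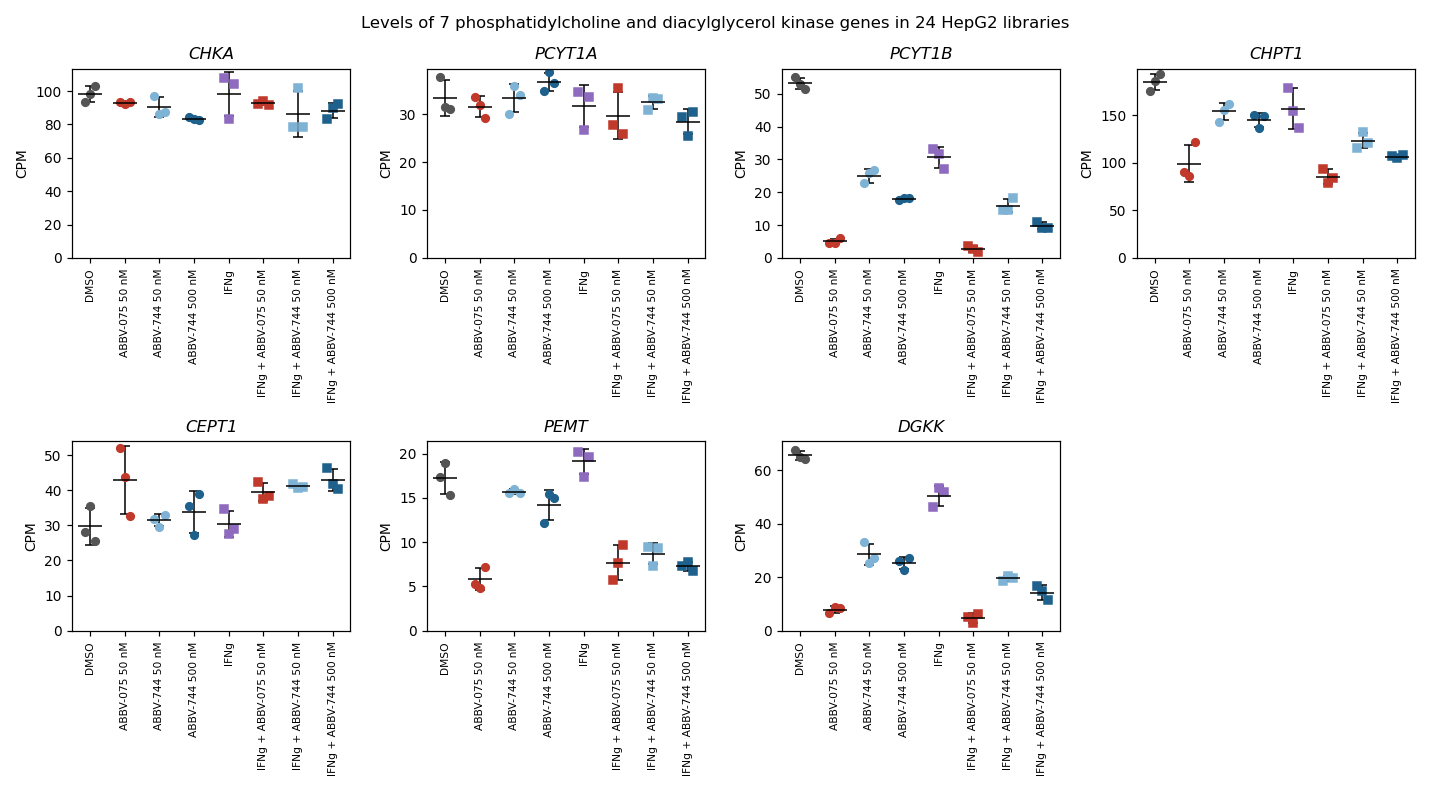
Level (CPM, linear axis from 0) of 7 of the 8 genes in each of the 24 libraries, by treatment group; points are libraries (circles without IFNg, squares with IFNg) and bars are the mean ± SD of 3 libraries. PCYT1B fell from a mean of 53.2 CPM with DMSO to 5.06 CPM with ABBV-075 and DGKK from 65.6 to 7.94 CPM, while PCYT1A stayed between means of 28.4 and 36.7 CPM.

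The comparison of the inhibitors with each other at 50 nM was not the contrast that chose PCYT1B and DGKK, but it uses libraries that entered the choice, so the p-values of those genes are not independent of it. Tests are edgeR quasi-likelihood tests with Benjamini-Hochberg adjustment over all genes, and a gene passed at an adjusted p of at most 0.05. Of the 5 functionally chosen genes with enough reads to test, 2 (PEMT and CHPT1) were lower with ABBV-075 than with 50 nM ABBV-744 and none was higher, where 40.8% of all genes passed, 19.4% lower and 21.4% higher. PCYT1B was 4.98-fold lower (log2 difference -2.31, SE 0.21, adjusted p = 0.000151) and DGKK 3.64-fold lower (log2 difference -1.86, SE 0.21, adjusted p = 0.000366), with no overlap of libraries for either gene. PEMT was 2.73-fold lower (log2 difference -1.45, SE 0.23, adjusted p = 0.00156) and CHPT1 1.56-fold lower (log2 difference -0.64, SE 0.15, adjusted p = 0.00765). With GC correction, which removes each library's trend with gene GC content, the CHPT1 difference was -1.5 (adjusted p = 0.000625), and 2 more genes passed, CEPT1 at -0.47 (adjusted p = 0.0201) and CHKA at 0.33 (adjusted p = 0.0327).

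In the presence of IFNg, CHPT1 was the 1 functionally chosen gene of 5 that was lower with ABBV-075 than with 50 nM ABBV-744 (log2 difference -0.48, SE 0.10, adjusted p = 0.00016 by edgeR), where 33.7% of all genes passed, 17% lower. The selected genes were lower as well, PCYT1B (log2 difference -2.48, SE 0.27, adjusted p = 6.26e-10) and DGKK (-2.0, SE 0.23, adjusted p = 3.94e-09). Here too their p-values are not independent of the choice. PEMT did not pass there, with a log2 difference of -0.16 and a 95% interval from -0.66 to 0.34. With GC correction the CHPT1 difference in this comparison was -0.32 (adjusted p = 0.00222). The exposure may have differed between the inhibitors, since only that of ABBV-075 is given in the sources used here.

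No gene of the set passed between 500 nM and 50 nM ABBV-744, where 0.0274% of all genes passed. The libraries of both doses entered the choice of PCYT1B and DGKK, so the p-values of those genes are not independent of it. PCYT1B was lower in every 500 nM library than in every 50 nM library, with a log2 difference of -0.48 (interval -0.84 to -0.11, adjusted p = 0.775 by edgeR), and DGKK differed by -0.17 (interval -0.52 to 0.17). At an unadjusted p of at most 0.05, 633 of 10967 genes passed, against 3 after adjustment. With IFNg, where 1.7% of all genes passed, the difference between doses was -0.67 for PCYT1B (interval -1.08 to -0.26, adjusted p = 0.0862 by edgeR) and -0.44 for DGKK (interval -0.80 to -0.07, adjusted p = 0.259). These misses of the threshold do not show that the doses act alike.

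PCYT1B and DGKK were lower with IFNg alone than with DMSO. This comparison was not in their rule, but its libraries were the controls used in the choice, so their p-values are not independent of it. PCYT1B averaged 30.7 ± 3.18 CPM (SD, n = 3) with IFNg against 53.2 ± 1.72 CPM with DMSO, 1.74-fold lower with no overlap (log2 difference -0.80, SE 0.12, adjusted p = 9.28e-06 by edgeR). DGKK averaged 50.6 ± 3.73 CPM with IFNg against 65.6 ± 1.76 CPM with DMSO, 1.3-fold lower with no overlap (log2 difference -0.38, SE 0.11, adjusted p = 0.0387 by edgeR). None of the 5 functionally chosen genes tested passed, where 3.46% of all genes passed, 0.695% lower and 2.76% higher. The DGKK call was lost with DESeq2 (adjusted p = 0.166), with all 24 libraries in the fit (0.217) and when any single library was left out (0.0529 to 0.124). The PCYT1B call held in each of these, with adjusted p up to 0.000282 when a library was left out.

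Whether an inhibitor changed PCYT1B or DGKK by a different factor when IFNg was present was tested by an interaction term, the difference of the log2 changes with and without IFNg. Neither gene passed for any inhibitor treatment by edgeR. The libraries of these terms entered the choice of the genes, so the p-values are not independent of it. For ABBV-075, where 0.0347% of all genes passed, 775 of 11530 genes tested had an unadjusted p under 0.05. For ABBV-744, 51.6% of all genes passed at 50 nM and 33.5% at 500 nM. For PCYT1B the term was -0.09 for ABBV-075 (interval -0.72 to 0.54), 0.11 for 50 nM ABBV-744 (interval -0.30 to 0.52) and -0.09 for 500 nM ABBV-744 (interval -0.54 to 0.36). For DGKK it was -0.36 (interval -0.97 to 0.25), -0.19 (interval -0.56 to 0.18) and -0.46 (interval -0.87 to -0.05, adjusted p = 0.0765 by edgeR). GC correction gave PCYT1B terms of 0.03 for ABBV-075, 0.30 for 50 nM ABBV-744 and 0.10 for 500 nM ABBV-744. For DGKK it gave -0.25, -0.10 and -0.34, and neither gene passed. With IFNg and ABBV-075 together, PCYT1B was at 5.02% and DGKK at 7.25% of the DMSO mean.

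**Figure D2:**
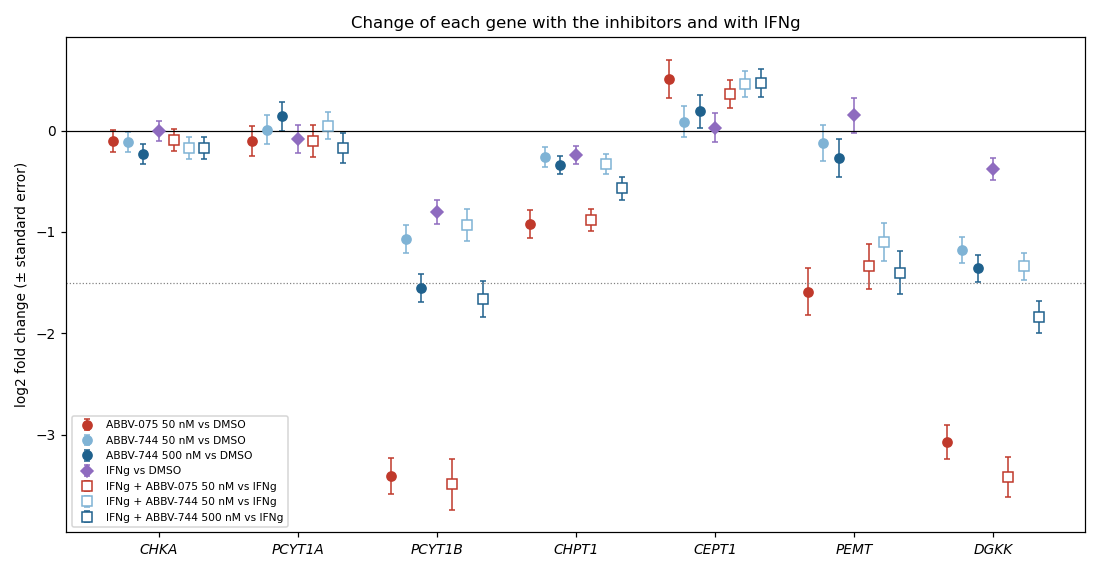
Log2 fold change (± standard error) of 7 genes in 7 comparisons, with each inhibitor treatment against DMSO (filled circles), IFNg against DMSO (diamonds) and each inhibitor treatment with IFNg against IFNg alone (open squares); the dotted line marks -1.5. PCYT1B and DGKK lie at -3.07 or lower with ABBV-075, PEMT is at -1.59 with ABBV-075 alone and at -0.12 and -0.27 with ABBV-744 alone, and CHKA and PCYT1A lie near 0.

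PCYT1A, the widely expressed alpha isoform of the cytidylyl transferase, passed in none of the 14 comparisons. Its group means lay between 28.4 and 36.7 CPM, a 1.29-fold range, and every pair of neighbouring groups overlapped. With DMSO its libraries were at 31, 31.5 and 37.8 CPM, and with ABBV-075 at 29.2, 31.9 and 33.5 CPM (log2 difference -0.10, interval -0.43 to 0.22). Per kilobase of annotated exon, PCYT1B was the more abundant isoform with DMSO, at 9.39 ± 0.304 CPM per kb against 4.2 ± 0.475 CPM per kb for PCYT1A (SD, n = 3). With ABBV-075 the order was turned, at 0.894 ± 0.145 CPM per kb for PCYT1B and 3.96 ± 0.277 CPM per kb for PCYT1A.

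The share of PCYT1B in the sum of both isoforms, per exon length, was 69.2% ± 1.74 (SD, n = 3) with DMSO, 18.5% ± 3.48 with ABBV-075, 51.4% ± 1.09 with 50 nM ABBV-744 and 40.9% ± 0.938 with 500 nM ABBV-744. It was 57.7% ± 4.69 with IFNg alone, 11.2% ± 3.26 with IFNg plus ABBV-075, 40.7% ± 2.72 with IFNg plus 50 nM ABBV-744 and 32.7% ± 2.47 with IFNg plus 500 nM ABBV-744. The share moved with PCYT1B, as the PCYT1A means spanned 1.29-fold. It also contains the values that chose PCYT1B and was not tested. The exon length is that of all annotated exons, not of the transcripts expressed. Before this scaling, PCYT1B averaged 25 CPM and PCYT1A 33.3 CPM with 50 nM ABBV-744, and 30.7 and 31.6 CPM with IFNg alone. Which isoform led there depended on the scaling, while in the other groups the order was the same either way.

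**Figure D3:**
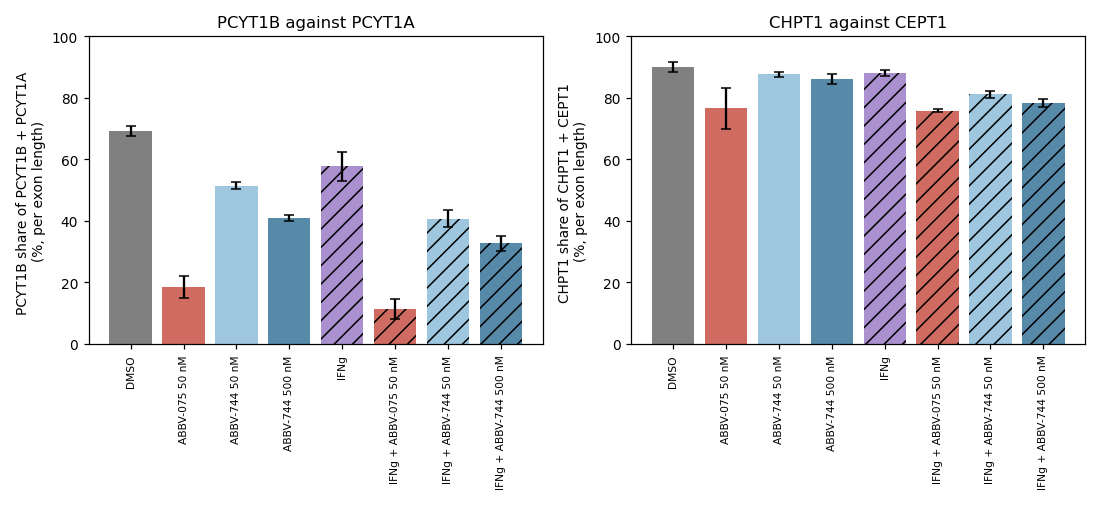
Share (%, axis from 0 to 100, per exon length) of PCYT1B in PCYT1B plus PCYT1A and of CHPT1 in CHPT1 plus CEPT1; bars are the mean and whiskers the SD of 3 libraries, hatched where IFNg was present. The PCYT1B share fell from 69.2% with DMSO to 18.5% with ABBV-075, and the CHPT1 share went from 90% to 76.5%.

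CHKA, the alpha form of choline kinase, passed in no comparison without GC correction. Its libraries were at 93.6, 98.1 and 103 CPM with DMSO and at 92.5, 93.2 and 93.4 CPM with ABBV-075, a log2 difference of -0.10 (interval -0.35 to 0.14). The largest difference from DMSO was -0.23 (interval -0.44 to -0.02, adjusted p = 0.125 by edgeR), with 500 nM ABBV-744. With GC correction this difference was -0.33 (adjusted p = 0.00574) and the interaction term of IFNg and 500 nM ABBV-744 was 0.43 (adjusted p = 0.0152). Group means stayed within 83.5 and 98.4 CPM. CHKB, the beta form, had 0 or 1 reads in every library, below the 3 reads taken as the limit of detection, and was not tested. In GENCODE it overlaps the readthrough gene CHKB-CPT1B on the same strand, and reads shared by overlapping genes are not counted for either. CHKB-CPT1B itself had 0 reads. The annotation used for counting is not given, so little CHKB RNA cannot be told apart from reads lost to an overlap. These counts are therefore not taken as the level of CHKB.

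PEMT, the enzyme of the methylation route, was the only 1 of the 6 functionally chosen genes to be past the study's thresholds (adjusted p of at most 0.05 and a log2 change of at least 1.5) against DMSO. Its libraries were at 15.3, 17.4 and 18.9 CPM with DMSO, at 4.88, 5.31 and 7.22 CPM with ABBV-075, at 15.5, 15.6 and 16 CPM with 50 nM ABBV-744 and at 12.2, 15 and 15.4 CPM with 500 nM ABBV-744. The ABBV-075 libraries lay apart below the others, while those of both ABBV-744 doses overlapped DMSO. With ABBV-075 PEMT was 3.02-fold lower (log2 difference -1.59, SE 0.23, adjusted p = 0.000253 by edgeR), where 3.19% of all genes were lower at these thresholds. The difference was -1.47 with GC correction and -1.49 without ABBV-075 replicate 2, short of the size threshold. With ABBV-744 alone it did not pass, at -0.12 (interval -0.49 to 0.25) for 50 nM and -0.27 (interval -0.66 to 0.11) for 500 nM.

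With IFNg present, PEMT was lower with each inhibitor treatment. Levels were 17.4, 19.6 and 20.2 CPM with IFNg alone, 5.72, 7.61 and 9.64 CPM with ABBV-075, 7.35, 9.39 and 9.4 CPM with 50 nM ABBV-744 and 6.77, 7.32 and 7.71 CPM with 500 nM ABBV-744. All inhibitor libraries lay below all IFNg libraries, and the 3 inhibitor groups overlapped each other. The log2 differences from IFNg alone were -1.34 (SE 0.22, adjusted p = 2.62e-06 by edgeR) for ABBV-075, -1.10 (SE 0.19, adjusted p = 1.53e-05) for 50 nM ABBV-744 and -1.40 (SE 0.21, adjusted p = 2.57e-06) for 500 nM ABBV-744. IFNg alone gave a difference of 0.15 (interval -0.19 to 0.49).

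The interaction term for PEMT passed for both ABBV-744 doses, at -1.01 (SE 0.25, adjusted p = 0.00139 by edgeR) for 50 nM and -1.11 (SE 0.27, adjusted p = 0.00209) for 500 nM, but not for ABBV-075, at 0.24 (interval -0.42 to 0.89). PEMT was the only 1 of the 7 genes to pass in these ABBV-744 terms without GC correction, where 51.6% of all genes passed at 50 nM and 33.5% at 500 nM. Those shares moved with base composition. For 50 nM ABBV-744 the median term was 1.07 over the fifth of genes lowest in GC and -0.60 over the fifth highest in GC, and for 500 nM it was 0.82 and -0.34. PEMT exons are 62.9% GC. The median term over all genes was -0.14 at 50 nM and -0.02 with GC correction. With GC correction the PEMT term was -0.43 (adjusted p = 0.245) at 50 nM and -0.80 (adjusted p = 0.0357) at 500 nM. That correction also gave terms for CHPT1 of -1.52 (adjusted p = 9.78e-10) and -1.27 (adjusted p = 1.39e-10) and for CEPT1 of -1.02 (adjusted p = 9.34e-05) and -0.72 (adjusted p = 0.00337) at 50 nM and 500 nM.

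Of the 2 enzymes of the last step, CHPT1 fell and CEPT1 went the other way on the scale without GC correction. Both genes are rich in A and T, with exons at 34.4% and 34.9% GC. CHPT1 stood at 176, 186 and 193 CPM with DMSO, 85.9, 90 and 122 CPM with ABBV-075, 143, 156 and 162 CPM with 50 nM ABBV-744 and 137, 149 and 150 CPM with 500 nM ABBV-744. Every inhibitor group lay below DMSO, with ABBV-075 lowest. The log2 difference with ABBV-075 was -0.92 (SE 0.14, adjusted p = 0.000444 by edgeR), and -1.33 with GC correction (adjusted p = 0.000191). With 50 nM ABBV-744 it was -0.26 (adjusted p = 0.0597), and 0.18 (adjusted p = 0.3) with GC correction, and with 500 nM -0.34 (SE 0.09, adjusted p = 0.0105). The call at 500 nM was lost with GC correction (-0.12, adjusted p = 0.286) and without DMSO replicate 2 (adjusted p = 0.0654) or DMSO replicate 3 (0.0822).

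Against IFNg alone, CHPT1 was lower with all 3 treatments. It averaged 157 ± 21.2 CPM with IFNg, 85.4 ± 7.63 CPM with ABBV-075, 123 ± 7.95 CPM with 50 nM ABBV-744 and 106 ± 1.62 CPM with 500 nM ABBV-744 (SD, n = 3), with no overlap with IFNg alone. The log2 differences were -0.88 (SE 0.11, adjusted p = 1.02e-08 by edgeR), -0.33 (SE 0.10, adjusted p = 0.00485) and -0.57 (SE 0.11, adjusted p = 4.13e-05). With GC correction they were -1.65, -1.35 and -1.40. Without IFNg replicate 1 the 50 nM ABBV-744 difference was -0.22 (adjusted p = 0.0576).

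CEPT1 was at 25.5, 28.1 and 35.5 CPM with DMSO and at 32.8, 43.9 and 51.9 CPM with ABBV-075, and the groups overlapped. The log2 difference was 0.51 (SE 0.19, adjusted p = 0.0476 by edgeR). The call was lost with DESeq2 (adjusted p = 0.0679), with reads of both strands (0.0502), without DMSO replicate 1 or 3 or ABBV-075 replicate 1 or 2 (adjusted p 0.132 to 0.185) and with GC correction, which gave 0.02 (adjusted p = 0.933). With ABBV-744 alone CEPT1 differed by 0.09 at 50 nM and 0.19 at 500 nM and did not pass, but with GC correction both passed, at 0.49 (adjusted p = 0.0245) and 0.40 (adjusted p = 0.0363). Against IFNg alone it was higher with each treatment, by 0.36 (SE 0.14, adjusted p = 0.0274), 0.46 (SE 0.13, adjusted p = 0.00356) and 0.47 (SE 0.14, adjusted p = 0.00562), but GC correction turned these to -0.39 (adjusted p = 0.00595), -0.53 (adjusted p = 0.00078) and -0.34 (adjusted p = 0.0297). The first of them was also lost with DESeq2 (adjusted p = 0.0813) and without IFNg replicate 2 or 3 or IFNg plus ABBV-075 replicate 1 (0.067 to 0.138). The direction of CEPT1 thus depended on the correction.

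Since CHPT1 and CEPT1 have nearly equal GC content, their shares within a library were also compared. Per exon length, CHPT1 made up 88.3%, 90% and 91.6% of the pair in the DMSO libraries and 71.5%, 73.8% and 84.3% in the ABBV-075 libraries. These did not overlap. The share was 87.6% ± 0.864 with 50 nM and 86.2% ± 1.6 with 500 nM ABBV-744 (SD, n = 3), and only the first overlapped DMSO. It was 88.1% ± 0.919 with IFNg alone, 75.8% ± 0.602 with IFNg plus ABBV-075, 81.1% ± 1.19 with IFNg plus 50 nM ABBV-744 and 78.2% ± 1.3 with IFNg plus 500 nM ABBV-744, and the last 3 lay below IFNg alone. With 3 libraries against 3 no exact permutation test can reach the threshold, so the shares carry no p.

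**Figure D4:**
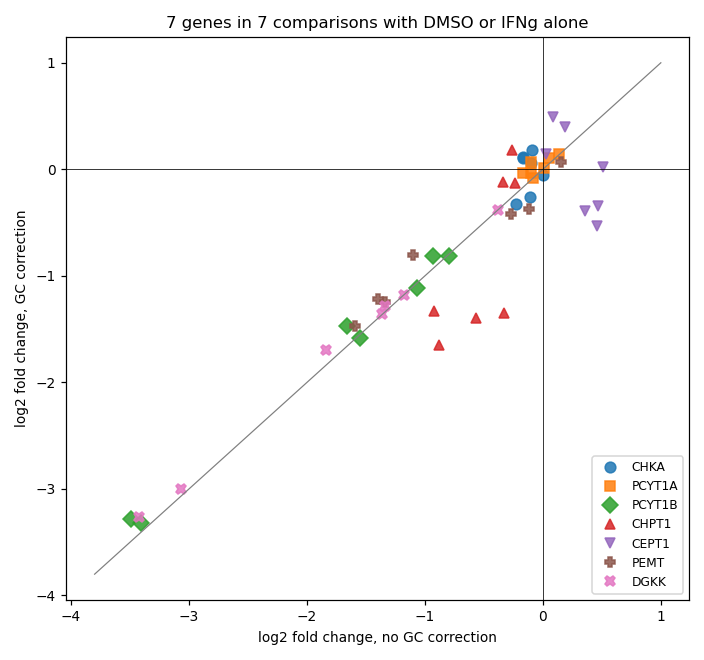
Log2 fold change with GC correction (vertical) against that without it (horizontal) for 7 genes in 7 comparisons with DMSO or IFNg alone; the diagonal line marks equal values. PCYT1B and DGKK lie along the line, whereas CHPT1 moves as far as from -0.33 to -1.35 and CEPT1 turns from 0.46 to -0.53 with IFNg plus 50 nM ABBV-744.

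Counted over the 5 functionally chosen genes that could be tested, 3 passed with ABBV-075 against DMSO (PEMT and CHPT1 lower, CEPT1 higher), where 39.3% of all genes passed. None passed with 50 nM ABBV-744 (18.9% of all genes) and only CHPT1 with 500 nM (15.3%). Against IFNg alone 3 passed in each comparison, where 56.6% of all genes passed with ABBV-075, 51.7% with 50 nM ABBV-744 and 45.7% with 500 nM ABBV-744. For 50 nM ABBV-744 against DMSO, 3732 genes passed at an unadjusted p of at most 0.05 and DESeq2 called 542 higher and 604 lower.

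The wider set of 77 genes for phosphatidylethanolamine and phosphatidylserine synthesis, diacylglycerol supply, choline transport, methyl supply, phosphatidylcholine turnover and lipid transfer had 64 tested members. With ABBV-075, 5 were higher and 21 lower than with DMSO, where 19.8% of all genes were higher and 19.6% lower. The median log2 difference of the tested members was -0.09, against 0.03 for all genes. With 50 nM ABBV-744, 4 were higher and 8 lower (median -0.08, all genes 0.00), where 8.81% of all genes were higher and 10.1% lower. With 500 nM, 6 were higher and 9 lower (median -0.04, all genes 0.00), where 7.48% of all genes were higher and 7.8% lower. With IFNg alone 3 were higher and 2 lower, where 2.76% of all genes were higher and 0.695% lower.

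Among the 14 tested genes of diacylglycerol supply, 6 were lower and none higher with ABBV-075, where 19.6% of all genes were lower and 19.8% higher. GPAM, the mitochondrial acyltransferase that starts glycerolipid synthesis, went from 160, 193 and 212 CPM with DMSO to 15, 21.5 and 30.2 CPM with ABBV-075 (log2 difference -3.09, SE 0.20, adjusted p = 9.08e-07 by edgeR). It was also past the study's thresholds with 50 nM ABBV-744 (-1.57, SE 0.13, adjusted p = 4.43e-09) and with 500 nM (-1.99, SE 0.12, adjusted p = 6.02e-13), the only gene of the wider set to be so with ABBV-744 alone. At 50 nM it was -1.34 with GC correction, -1.47 without DMSO replicate 2 and -1.44 without ABBV-744 replicate 2, short of the size threshold. AGPAT2, which makes phosphatidic acid, was lower with ABBV-075 (log2 difference -1.79, SE 0.38, adjusted p = 0.00324), on only 3, 5 and 10 reads.

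Of the 9 diacylglycerol kinases listed other than DGKK, 5 had enough reads to test, and 2 of these passed with ABBV-075, in opposite directions, where 39.3% of all genes passed. DGKG was lower with ABBV-075 (3.33 against 14 CPM, log2 difference -2.06, SE 0.25, adjusted p = 8.2e-05 by edgeR) and DGKQ higher (61.3 against 19.5 CPM, log2 difference 1.63, SE 0.17, adjusted p = 3.28e-05). DGKQ was also higher with 50 nM ABBV-744 (0.84, adjusted p = 0.000979) and 500 nM ABBV-744 (0.78, adjusted p = 0.000773).

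Choline transport and methyl supply also held genes past the study's thresholds with ABBV-075. SLC44A4, a choline transporter-like protein, fell by 3.33 on the log2 scale (SE 0.31, adjusted p = 1.54e-05 by edgeR), from 14.8 to 1.5 CPM. SLC44A1, the widely expressed choline transporter, rose by 0.75 (SE 0.14, adjusted p = 0.00178 by edgeR), short of the size threshold, and was named after its values were seen. Of the 7 tested choline transport genes, 1 was higher and 2 lower, where 19.8% of all genes were higher and 19.6% lower. MAT1A, which makes the methyl donor S-adenosylmethionine that PEMT uses, was at 184, 195 and 212 CPM with DMSO and 41.9, 50.7 and 53.2 CPM with ABBV-075 (log2 difference -2.04, SE 0.13, adjusted p = 7.87e-07). BHMT2, a homocysteine methyltransferase, differed by -1.83 (SE 0.26, adjusted p = 0.000269). PLA2G12B, a phospholipase A2 family protein, differed by -1.73 (SE 0.17, adjusted p = 1.75e-05).

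**Figure D5:**
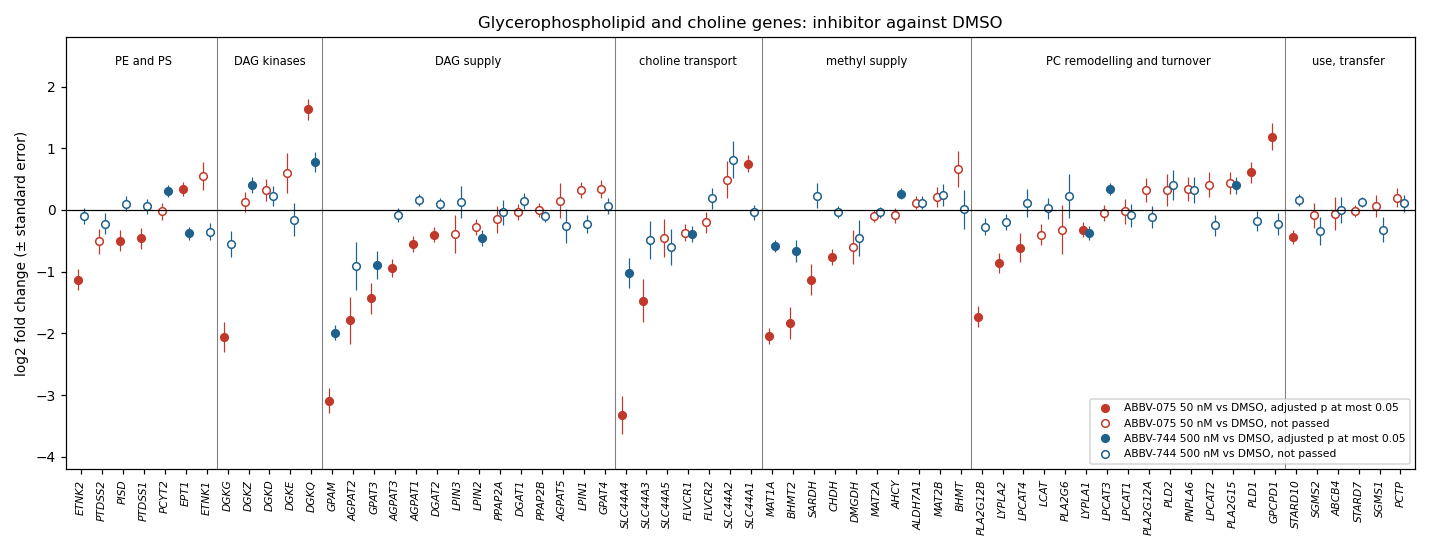
Log2 fold change (± standard error) against DMSO of the tested genes around phosphatidylcholine synthesis, by group and ordered by value, for ABBV-075 (red) and 500 nM ABBV-744 (blue); filled points passed at an adjusted p of at most 0.05. GPAM at -3.09 and SLC44A4 at -3.33 are the lowest with ABBV-075, and DGKQ at 1.63 is the highest.

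No tested gene next to PCYT1B or DGKK on chromosome X passed with ABBV-075 against DMSO, where 39.3% of all genes passed. Too few neighbours were tested to read this as a local pattern. PDK3 ends 7.62 kb from PCYT1B and differed from DMSO by 0.24 (interval -0.09 to 0.57), and POLA1, 21.2 kb away on the other side, by 0.31 (interval -0.04 to 0.67). CLCN5, the only tested gene of the 6 nearest to DGKK, differed by -0.16 (interval -0.42 to 0.10). With 50 nM ABBV-744, where 10.1% of all genes were lower, POLA1 was lower (log2 difference -0.50, adjusted p = 0.0317 by edgeR), as was CLCN5 (-0.39, adjusted p = 0.0195). With 500 nM, where 7.8% of all genes were lower, CLCN5 was lower (-0.31, adjusted p = 0.0431 by edgeR). Of the 3 protein-coding neighbours on each side of each gene, the other 9 had too few reads to test.

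The genes whose levels were most like PCYT1B over the 8 group means, by Pearson correlation of log2 CPM among 11582 genes, were AKR1C2 (r = 0.997), APOA4 (0.996), FAM171A1 (0.996), LPPR1 (0.996) and APCDD1 (0.994). For DGKK they were AKR1C2 (0.995), LPPR1 (0.993), AKR1C3 (0.993), PCYT1B (0.991) and ITIH2 (0.991). DGKK ranked 7 in the list for PCYT1B and CHPT1 ranked 28 (r = 0.982), while PCYT1A had r = 0.539 with PCYT1B and CEPT1 r = -0.796. These are descriptions over 8 means that share the same libraries. AKR1C2 and AKR1C3 are close paralogs, and reads that map to both are not counted for either. PCYT1B and DGKK were both chosen for their fall with the inhibitors, so their likeness to each other was in part set by that choice.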

How the data were processed

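The 24 libraries were from HepG2 cells. The authors deposited raw read counts per gene from STAR 2.7.1 on GRCh38, after base calling with CASAVA 1.8.2 and trimming with Trimmomatic 0.33, as the submitters' processing notes and the study's methods give it. The annotation used for counting is not given in the sources used here. Column 4 (gene strand) was used and column 2 (both strands) was an alternative. The 4 summary rows were left out of library sizes.

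Counts were tested with edgeR 4.0.16 (filterByExpr, TMM, quasi-likelihood test, adjusted over all genes) in the 6 libraries of the groups compared, or 12 for an interaction. DESeq2 1.42.0, RLE scaling, no filter, all libraries, a replicate block, GC correction by lowess (span 0.3) and leaving out each library were alternatives. The fits were tested on simulated counts for ABBV-075 against DMSO and its interaction with IFNg. In the first, 95% of genes changed by 1 on the log2 scale passed, and 10 of 10999 unchanged genes. In the interaction 58% of genes changed by 1 passed. The simulated counts had the same dispersion for every gene and no GC trend, and only genes above a set mean count were changed. These rates therefore do not carry over to genes with few reads or to comparisons with a GC trend.

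The genes and lists were chosen with earlier results of these data known. Named genes are the 8 genes, wider-set genes past the study's thresholds against DMSO, tested neighbours, the 5 genes most alike (prior count 2) and check genes, not all of which are reported here. SLC44A1 was named outside this rule, after its values were seen. Exon lengths and GC content are from GENCODE 44. Of 26475 symbols, 23161 were paired by name and 1367 by a synonym (EPT1 is SELENOI, LPPR1 is PLPPR1). No libraries within a group were duplicates (chi-square per degree of freedom 1.66 to 16.6 over 24 pairs), and pairs across groups were not compared. The ABBV-075 pairs were at 3.96, 8.37 and 16.6, so these libraries differed more from each other than the DMSO libraries (2.05, 2.25 and 3.07).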

Additional observations from a re-analysis of the deposited data

Results flagged for a closer look

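The change of PEMT with ABBV-744 differed with and without IFNg by a test of the difference itself. The interaction term was -1.01 for 50 nM and -1.11 for 500 nM on the log2 scale. Passing was common in these terms, as 51.6% of all genes passed at 50 nM and 33.5% at 500 nM. Without IFNg the mean PEMT level went from 17.2 CPM to 15.7 and 14.2 CPM, and with IFNg from 19.1 CPM to 8.71 and 7.27 CPM. With GC correction the 50 nM term was -0.43 and no longer passed (adjusted p = 0.245), while the 500 nM term was -0.80 and passed (adjusted p = 0.0357). The part of base composition in the difference was not otherwise tested.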

How the results depend on the processing

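Over the 46 gene-level values followed, RLE scaling and no filter on low counts changed no call and turned no direction. DESeq2 ended 3 calls, GC correction 3, the replicate block 2, all 24 libraries 1 and counts of both strands 1. GC correction turned CEPT1 against IFNg alone to -0.39 with ABBV-075, -0.53 with 50 nM ABBV-744 and -0.34 with 500 nM ABBV-744. The number of genes of the set passing against DMSO went from 0 to 1 for 50 nM ABBV-744 and from 1 to 2 for 500 nM ABBV-744 with GC correction, and in the interaction terms from 1 to 2 for 50 nM (CHPT1 and CEPT1, no longer PEMT) and from 1 to 4 for 500 nM. Replicate numbers were not taken to pair the libraries. Correlations of same-numbered deviations lay between -0.18 and 0.34, and no comparison had all 3 above the limit. For 500 nM against 50 nM ABBV-744 without IFNg, they were 0.25, 0.33 and 0.06. Over all genes, 0 passed as higher and 3 as lower without the replicate block there, and 180 and 140 with it. Whether those libraries were paired was not tested. With the replicate block, the number of genes of the set passing was 0 for 500 nM ABBV-744 against DMSO, where CHPT1 no longer passed. For IFNg against DMSO it was 1 with the block, where DGKK no longer passed, and also 1 with DESeq2 and with all 24 libraries. Leaving out a library gave 0 to 1 for both ABBV-744 doses against DMSO, 1 to 2 for IFNg against DMSO and 1 to 2 for the 500 nM interaction. The causes were not tested. For 50 nM ABBV-744 against DMSO, 979 genes were higher and 1123 lower, and 622 and 575 with GC correction. The 50 nM ABBV-744 interaction called 2866 genes higher and 3039 lower, and 1081 and 1269 with GC correction, and the 500 nM interaction 2115 and 1712, and 871 and 1050 with GC correction. Depth limits the ABBV-075 groups, where PCYT1B rested on 6 to 20 reads per library.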
